A study of Homo sapiens with 5 samples.

Results

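The intervals described here are efficient replication origins that were called after a 3-hour reaction and had no counterpart after a 15-minute reaction. They come from ini-seq 2, which maps where human nuclei start DNA synthesis in the test tube. EJ30 cells, an established human bladder carcinoma line, were arrested in late G1 with mimosine, and their nuclei were incubated for 3 hours or for 15 minutes in cytosolic extract of proliferating HeLa cells with Br-dUTP in place of dTTP. No genotype change or other agent separated the 2 reactions, and the label of the 15-minute sample adds the word control. The bromine label makes copied DNA denser on one strand (HL) than DNA not yet copied (LL), and the efficiency of an interval is HL/(HL + LL). Short nascent strand sequencing (SNS-seq) of EJ30 cells, in a 0.5 to 2 kb and a 2 to 4 kb fraction, gave 2 further lists of peaks.

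Members were chosen by 2 readouts, an efficiency from 0.9066 up to below 0.97 at 3 hours and no base shared with any 15-minute interval. This left 1206 intervals of the 7147 in that efficiency range, or 16.9%. In the whole 3-hour list of 23905 intervals, 14308 (59.9%) shared no base with the 10181 intervals of the 15-minute list. The 5941 intervals of the same range that shared at least 1 base with a 15-minute interval served as the comparison and are called the intervals called at both times. Because each condition is 1 list, the 3-hour list pooling 2 biological replicates, no spread between replicates exists for any value below. Absence from the 15-minute list means that the caller did not report the site, and without read counts per site it cannot be set against a level of signal. Per the study's description, the 15-minute HL and LL libraries both held fewer mapped reads than the 3-hour ones, and the part of this in absence at 15 minutes was not tested.

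A replication origin is a site where the paired strands are first opened and copied. In human cells origins have no shared consensus sequence and are frequent in GC-rich DNA, in CpG islands (CpG-rich stretches over many promoters) and near motifs that can fold into G-quadruplexes, in which 4 runs of G stack on each other. SNS-seq maps origins through the short strands that form beside them in growing cells, so it does not share the in vitro reaction of ini-seq 2.

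The intervals absent at 15 minutes were of unlike kinds, and 2 of the most efficient of the first kind are shown because their sequence sets them apart from nearly every interval called at both times. They consist mostly of purines (A and G) on one strand and pyrimidines (C and T) on the other. Each line gives the central 300 bases of the interval on the plus strand of hg38, and capitals mark the longest unbroken purine or pyrimidine run.

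chr9:113678101-113678400: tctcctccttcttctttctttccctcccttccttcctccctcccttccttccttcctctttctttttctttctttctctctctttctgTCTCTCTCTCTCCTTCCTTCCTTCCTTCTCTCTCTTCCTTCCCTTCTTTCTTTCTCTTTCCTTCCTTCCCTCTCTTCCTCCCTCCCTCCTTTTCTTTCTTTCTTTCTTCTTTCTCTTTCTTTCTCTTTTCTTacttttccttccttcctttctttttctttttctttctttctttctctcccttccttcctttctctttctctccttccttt
chr19:2418701-2419000: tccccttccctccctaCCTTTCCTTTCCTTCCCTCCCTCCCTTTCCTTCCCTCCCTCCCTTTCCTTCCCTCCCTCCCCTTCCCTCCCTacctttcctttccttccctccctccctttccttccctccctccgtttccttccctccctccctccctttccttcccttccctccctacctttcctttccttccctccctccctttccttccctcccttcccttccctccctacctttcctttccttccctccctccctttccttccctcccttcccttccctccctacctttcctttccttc

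The second kind was CpG-rich. Of the most efficient CpG-rich intervals absent at 15 minutes whose central 300 bases lie outside annotated UTRs, 3 are shown in the same way, with every CpG in capitals. The interval on chromosome 10 lies over coding sequence of SCART1, a scavenger receptor family gene, the one on chromosome 17 lies in no annotated gene, and the one on chromosome 15 lies over an exon of the pseudogene UBE2Q2P1.

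chr10:133459601-133459900: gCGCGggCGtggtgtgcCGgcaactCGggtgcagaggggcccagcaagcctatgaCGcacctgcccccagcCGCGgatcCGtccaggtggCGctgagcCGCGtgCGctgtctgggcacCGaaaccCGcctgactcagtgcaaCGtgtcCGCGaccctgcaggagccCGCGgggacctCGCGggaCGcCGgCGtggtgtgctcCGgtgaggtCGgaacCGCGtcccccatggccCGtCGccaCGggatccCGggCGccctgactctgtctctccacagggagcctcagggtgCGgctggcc
chr17:19724701-19725000: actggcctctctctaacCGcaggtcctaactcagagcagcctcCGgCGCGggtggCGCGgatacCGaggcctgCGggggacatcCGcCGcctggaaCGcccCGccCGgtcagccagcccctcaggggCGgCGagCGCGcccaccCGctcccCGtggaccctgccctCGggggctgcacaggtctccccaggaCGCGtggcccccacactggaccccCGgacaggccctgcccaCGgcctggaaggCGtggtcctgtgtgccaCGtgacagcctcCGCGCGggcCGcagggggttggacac
chr15:84570201-84570500: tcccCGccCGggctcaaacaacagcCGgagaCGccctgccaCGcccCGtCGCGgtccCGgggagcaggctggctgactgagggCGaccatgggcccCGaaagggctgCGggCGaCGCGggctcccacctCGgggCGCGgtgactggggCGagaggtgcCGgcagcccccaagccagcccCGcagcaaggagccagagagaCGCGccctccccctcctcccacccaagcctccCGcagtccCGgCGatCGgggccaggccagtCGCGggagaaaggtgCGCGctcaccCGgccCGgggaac

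For comparison, a CpG-rich interval called at both times, chosen in the same way, had an efficiency of 0.9699 and covered the starts of JAZF1, a zinc finger gene, and of its antisense lncRNA.

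chr7:28180051-28180350: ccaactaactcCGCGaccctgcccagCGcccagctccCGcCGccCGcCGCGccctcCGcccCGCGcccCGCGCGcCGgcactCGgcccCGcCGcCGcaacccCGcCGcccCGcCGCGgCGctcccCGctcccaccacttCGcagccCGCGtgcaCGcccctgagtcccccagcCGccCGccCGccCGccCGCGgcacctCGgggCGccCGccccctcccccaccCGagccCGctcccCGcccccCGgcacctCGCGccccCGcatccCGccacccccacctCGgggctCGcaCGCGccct

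The CpG-rich windows of the intervals absent at 15 minutes held 35, 30 and 33 CpGs, and that of JAZF1 held 51. The JAZF1 interval had 78.4% GC, above the median of 71.1% over intervals called at both times, so its window is not typical of them. In the tract windows the longest runs measured 132 bases on chromosome 9 and 72 bases on chromosome 19, and GC content was 41.7% and 58.7%.

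The efficiency and length of the members are tied to the rule or to the caller, and are given as a description. Median efficiency was 0.9226 (quartiles 0.9132 and 0.9363, highest 0.9696) for the 1206 intervals absent at 15 minutes and 0.9391 for the intervals called at both times. The share absent at 15 minutes was 40.1% between 0.9066 and 0.91, 23.4% between 0.92 and 0.93, 10.5% between 0.94 and 0.95 and 5.74% between 0.96 and 0.97. Absence at 15 minutes became less frequent at each step of efficiency, but 47 intervals of the top step were still absent. At the lower limit the closest members had an efficiency of 0.9066, at chr12:53223201-53223700, chr16:1374601-1375100 and chr16:79482901-79483300, and the closest absent intervals below it had 0.9065. At the upper limit the closest members had 0.9696, 0.9692 and 0.9691, and the closest absent intervals above it had 0.9704, 0.9710 and 0.9712.

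The members were short. Their median length was 500 bp (quartiles 400 and 700 bp, longest 3600 bp), against 1000 bp (quartiles 800 and 1400 bp) for the intervals called at both times. Of the 366 intervals of 300 bp, the smallest size in the list, 272 (74.3%) were absent at 15 minutes. The share was 62.9% at 400 bp, 42.5% at 500 bp, 21.1% at 600 to 700 bp and 2.17% at 2000 bp or more. The caller drops merged intervals below a minimum length, and the part of this in absence at 15 minutes was not tested. Median length did not rise with efficiency, at 500 bp below 0.94 and 400 bp above it.

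**Figure D1:**
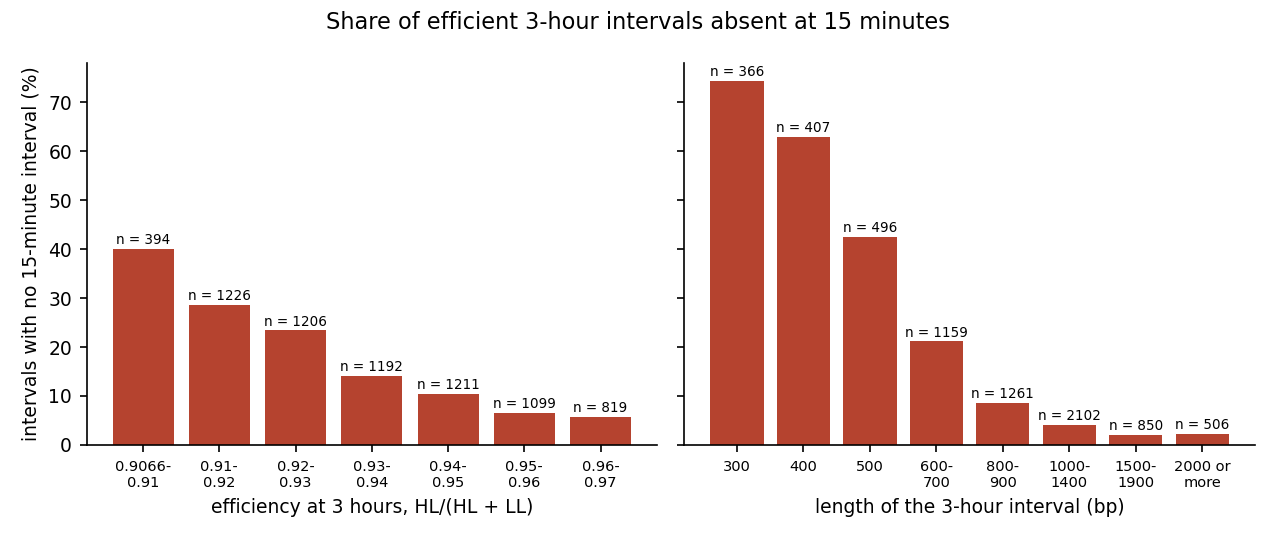
Share of 3-hour intervals with no 15-minute interval over them (y axis, percent) by efficiency (left) and by interval length in bp (right), with the number of intervals above each bar. The share falls from 40.1% to 5.74% over the efficiency steps and from 74.3% at 300 bp to 2.17% at 2000 bp or more.

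Most members lay far from any 15-minute interval. The median distance was 55351 bp, 28 members had a 15-minute interval within 1 kb, 768 within 100 kb and 36 had none within 1000 kb. Only 7 adjoined one. Among the intervals called at both times, 15-minute intervals covered a median of 70% of the length, and the median Z-score at 15 minutes rose from -0.40 in the lowest efficiency step to 0.57 in the highest. By chromosome, the share absent at 15 minutes ran from 8 of 80 intervals on chromosome 21 to 125 of 458 (27.3%) on chromosome 19. Over all 3-hour intervals the shares absent at 15 minutes on these chromosomes were 69.0% and 69.8%.

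Sequence and annotation were not used by the rule and were compared with a permutation test. For each measure the difference, absent minus called at both times, was taken on each of 23 chromosomes, and the signs were flipped at random 100000 times. The p is two-sided and Benjamini-Hochberg adjusted over 21 tests, and the smallest the flips can give is 1e-05, or 1.75e-05 after adjustment. Chromosomes stand in for replicates, so p measures how evenly a difference runs over the genome and not whether a repeat of the reaction would show it. Of the 21 tests, 14 had an adjusted permutation p below 0.05.

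GC content was lower in the intervals absent at 15 minutes. It averaged 68.3% (SD 6.44, n = 1206) against 71.2% (SD 2.54, n = 5941), and was lower on 23 of 23 chromosomes, with a mean difference of -3.00 percentage points (SD 0.913, adjusted permutation p = 1.75e-05). All 23905 3-hour intervals, most of them less efficient, averaged 67.0%. The medians, 69.8% and 71.1%, lay closer together than the means, since a set of AT-richer members pulled the mean down. Without the tract intervals, described further on, the difference was -1.06 points (adjusted permutation p = 2.33e-05). Base composition 5 to 10 kb away averaged 46.2% GC around the members and 46.0% around the intervals called at both times (adjusted permutation p = 0.998).

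CpG content was lower as well. The ratio of observed to expected CpG averaged 0.687 (SD 0.230) against 0.815 (SD 0.103), lower on 23 of 23 chromosomes. An interval counts here as CpG-rich when its GC content is above 50% and this ratio above 0.6. That was so for 918 members (76.1%, 95% exact interval 73.6 to 78.5) and for 5794 intervals called at both times (97.5%, 97.1 to 97.9), a mean chromosome difference of -21.6 points (adjusted permutation p = 1.75e-05), against 53.7% of all 3-hour intervals. Without the tract intervals the difference in the CpG-rich share was -13.1 points (adjusted permutation p = 2.33e-05). Among members the CpG-rich share was 70.9% in the lowest efficiency step and 95.7% in the highest, and among intervals called at both times it was 91.5% and 99.5%.

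G4 motifs (on either strand, 4 stretches of 3 or more G, the loops between them 1 to 7 bases long) lay in the central 300 bases of 546 members (45.3%) and of 3220 intervals called at both times (54.2%), against 44.8% of all 3-hour intervals. The share was lower on 20 chromosomes and higher on 3, a mean difference of -9.21 points (adjusted permutation p = 0.00087). Taken between intervals of like efficiency and length, the difference was -6.63 points with an adjusted permutation p of 0.119.

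Among 5 promoter motifs searched on both strands of the central 300 bases, GGGCGG, the GC box bound by Sp1 factors, differed most. It occurred in 825 members (68.4%) and in 5029 intervals called at both times (84.6%), against 58.6% of all 3-hour intervals. The GC box was rarer among members on 23 of 23 chromosomes, with a mean difference of -16.6 points (adjusted permutation p = 1.75e-05). Without the tract intervals this difference was -8.64 points (adjusted permutation p = 0.000105). The others, CCAAT (NF-Y), CCGGAAGT (ETS factors), TGACGTCA (CREB) and TATAAA (the TATA box), are not contained in each other or in the GC box and did not pass the test, with adjusted permutation p from 0.0716 to 0.718. CCAAT was found in 14.3% of members, 13.1% of intervals called at both times and 15.8% of all 3-hour intervals. In the same order the shares were 1.66%, 0.976% and 1.38% for TATAAA, 1.99%, 2.47% and 1.83% for CCGGAAGT, and 0.746%, 0.842% and 0.657% for TGACGTCA. Between intervals of like efficiency and length the mean chromosome difference moved from 0.72 to 1.22 points for TATAAA (adjusted permutation p = 0.0167) and from -0.62 to -3.00 points for CCGGAAGT (adjusted permutation p = 0.0355), so that both then passed. Few members carry these motifs, 20 for TATAAA and 24 for CCGGAAGT. The -3.00 points are larger in size than the share of CCGGAAGT in either group, so these values rest on sparse counts.

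Long purine or pyrimidine runs were more frequent among the members than among intervals called at both times. An unbroken run of at least 20 purines or 20 pyrimidines lay in the central 300 bases of 170 members (14.1%, 12.2 to 16.2) and of 322 intervals called at both times (5.42%, 4.86 to 6.03), against 8.73% of all 3-hour intervals. The share was higher among members on 22 of 23 chromosomes, by 8.78 points on average (adjusted permutation p = 1.75e-05). Runs of at least 30 bases lay in 139 members (11.5%) and 76 intervals called at both times (1.28%), against 4.88% of all 3-hour intervals. At 50 bases the counts were 128 (10.6%) and 14 (0.236%), against 3.71%. At 100 bases they were 89 (7.38%) and 2 (0.0337%), against 2.04%. Short tandem repeats covered 4.04% of the central 300 bases of members and 1.94% of those called at both times (adjusted permutation p = 3.23e-05).

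Most of the longest runs lay in 1 set of members. In 128 members (10.6%), at least 50% of the central 300 bases lay in unbroken runs of 20 or more, as in the first 2 sequences shown above, and 3 intervals called at both times (0.0505%) met the same condition. This class was defined after its values were seen and has no test. A limit of 30% instead of 50% gave 129 members against 8 intervals called at both times, and a limit of 90% gave 66 against 1. Over the whole 3-hour list, 5 of 746 tract intervals (0.670%, 0.218 to 1.56) were called at 15 minutes, against 41.4% of the 23159 other intervals. Reads without a unique position were removed by the authors, and the part of this in the values of tract intervals was not tested.

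The tract members were AT-richer than other members. Their GC content had a median of 53.0% (38.7 to 66.3), against 70.2% in the other 1078 members. Median efficiency was 0.9207 and median length 500 bp, close to the 0.9231 and 500 bp of the other members. The longest run had a median of 119.5 bases, and it reached 100 bases or more in 89 of the 128. Tract intervals are defined by runs of at least 20, so leaving them out removes 128 of the 170 members with such a run. Without them the difference in these runs was -1.53 points, a change that follows from the definition. Tandem repeat cover turned as well, to -0.961 points. Neither value is a test of the class.

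Purines were on the plus strand in 57 tract members and on the minus strand in 71. G made up a median of 56.0% of the longest run when read on its purine strand (31.9 to 74.2%), the rest being A. In 123 of the 128 the window held a tandem repeat, and the unit of the longest one, on the purine strand, was most often AGG (25 members), AAGG (22), AGGG (22), AG (13) or AGGGG (10). Of all 746 tract intervals of the 3-hour list, 704 held a tandem repeat. The same units led there, with AGG in 135, AAGG in 146, AGGG in 149, AG in 67 and AGGGG in 56. Of the 67 tract members that lay in genes on a single strand, 22 had the purines on the coding strand and 45 on the template strand. In all tract intervals of the 3-hour list these counts were 139 and 259. A G4 motif was present in 67 tract members (52.3%) and in 469 (62.9%) of all tract intervals of the 3-hour list.

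Of the 128 tract members, 4 had a central window that was purine or pyrimidine throughout. They were chr6:23623201-23623700 (efficiency 0.9437), chr4:182834001-182834700 (0.9425), an intron of THNSL2 at chr2:88180901-88181600 (0.9256) and an intron of a lncRNA at chr13:76827901-76828200 (0.9121). The longest tract member was a 3000 bp interval in an intron of ANKDD1A (chr15:64952001-64955000, efficiency 0.9493) with 38.7% GC. Of the sequences shown, that on chromosome 19 belongs to an interval in an intron of TMPRSS9, a membrane serine protease gene (chr19:2418501-2419200, efficiency 0.9532), and that on chromosome 9 to one in an intron of a lncRNA (chr9:113678101-113678400, 0.9571). The 3 tract intervals called at both times included one in an intron of PPP2R5C (15-minute Z-score -1.11) and chr1:29707101-29707700 (-0.63), which lies in no annotated gene. The remaining one, in an intron of TLE2 (chr19:3046701-3047500, efficiency 0.9564), had a 15-minute Z-score of 0.98.

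**Figure D2:**
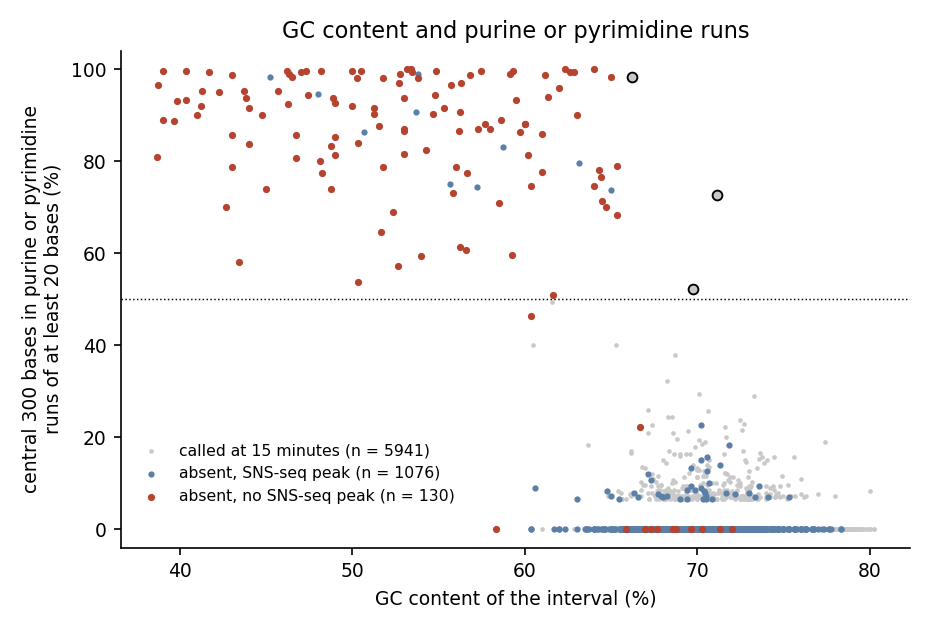
GC content of each interval (x axis, percent) against the share of its central 300 bases in purine or pyrimidine runs of at least 20 bases (y axis, percent). Grey points are the 5941 intervals called at both times, blue points the 1076 members with an SNS-seq peak, red points the 130 members without, and the dotted line the 50% limit. Most red points lie above the line, and the outlined grey points are the 3 tract intervals called at both times.

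SNS-seq peaks covered the members less often than the intervals called at both times. A peak of either fraction overlapped 1076 members (89.2%, 87.3 to 90.9) and 5940 of the 5941 intervals called at both times, lower on 23 of 23 chromosomes, with a mean difference of -11.9 points (adjusted permutation p = 1.75e-05). Peaks of both fractions overlapped 1018 members (84.4%) and 5910 intervals called at both times (99.5%), a difference of -16.0 points (adjusted permutation p = 1.75e-05). Between intervals of like efficiency and length, tracts included, the differences were -10.7 points for either fraction and -13.4 points for both (adjusted permutation p = 2.62e-05 for each). Over all 3-hour intervals a peak of either fraction overlapped 91.6% and peaks of both fractions 77.7%, so the members lay slightly below the whole list in the first share and above it in the second. Within 5 kb a peak was found for 1135 members (94.1%) and for all 5941 intervals called at both times, and this difference of -6.32 points became -0.22 points (adjusted permutation p = 0.555) without the tract intervals.

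Tract members made up most of this gap. An SNS-seq peak overlapped 11 of 128 tract members (8.59%, 4.37 to 14.9), and peaks of the 0.5 to 2 kb fraction overlapped 1. Over all 746 tract intervals of the 3-hour list these counts were 77 (10.3%) and 18 (2.41%). Low overlap was thus shared by tract intervals at large and not particular to those absent at 15 minutes. Of the 130 members without a peak, 117 were tracts and 13 were not. For 59 tract members a peak lay within 5 kb. All 3 tract intervals called at both times carried peaks of both fractions. Among the other members a peak overlapped 1065 of 1078 (98.8%), a mean chromosome difference of -2.07 points (adjusted permutation p = 0.00166), and for both fractions the difference was -5.98 points (adjusted permutation p = 2.33e-05). These 2 differences were not matched on length. With tracts left out, both fractions overlapped 92.1% of members and 97.4% of intervals called at both times at 300 to 500 bp. The shares were 97.2% and 99.3% at 600 to 900 bp, and 100% and 99.9% at 1000 bp or more. The share with both fractions was 94.8% of CpG-rich members over a gene start, 96.5% of CpG-rich members elsewhere, and 86.4% of the 169 members that were neither CpG-rich nor tracts.

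**Figure D3:**
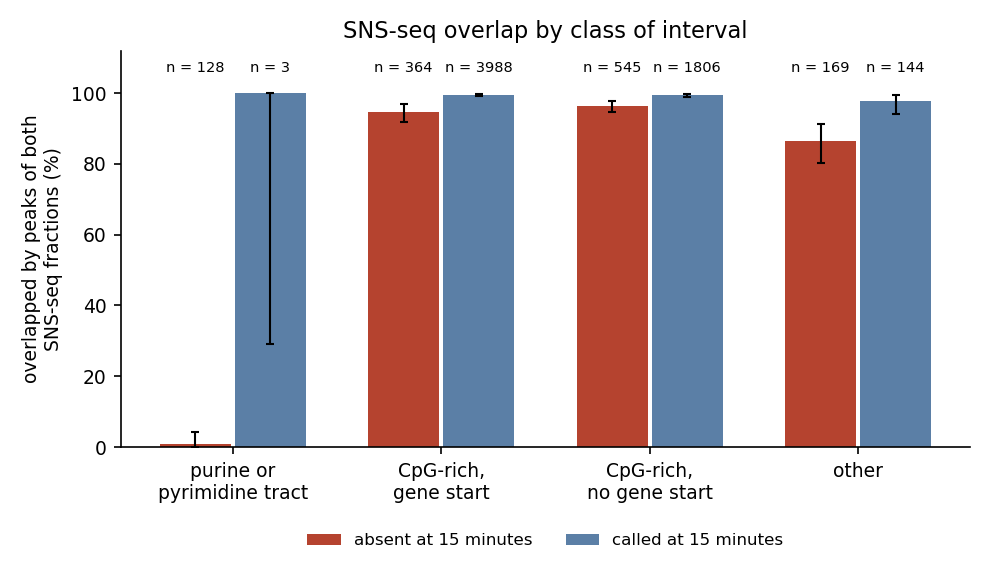
Share of intervals overlapped by peaks of both SNS-seq fractions (y axis, percent) in 4 classes, for intervals absent at 15 minutes (red) and called at both times (blue), with 95% exact intervals that cover counting error only. The share is 0.781% for the 128 tract members and 94.8%, 96.5% and 86.4% for the other classes absent at 15 minutes.

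Among the shares tested, that of gene starts differed most. A GENCODE 44 gene start lay inside 379 members (31.4%, 28.8 to 34.1) and 4043 intervals called at both times (68.1%, 66.8 to 69.2), lower on 23 of 23 chromosomes, with a mean difference of -37.0 points (adjusted permutation p = 1.75e-05). For starts of protein-coding genes the counts were 308 (25.5%) and 3636 (61.2%), a difference of -35.6 points. Over all 3-hour intervals the shares were 36.9% for any start and 31.8% for coding starts, nearer to those of the members than to those of the intervals called at both times. Shorter intervals hold fewer starts, and between intervals of like efficiency and length the differences were -18.6 points for any start (adjusted permutation p = 3.82e-05) and -18.0 points for coding starts (adjusted permutation p = 2.62e-05). With starts within 1 kb counted, and without matching on efficiency or length, they were -34.7 and -36.4 points.

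With tracts left out, at 300 to 500 bp a gene start lay inside 26.5% of members and 38.3% of intervals called at both times. At 1000 bp or more these shares were 49.1% and 75.4%. Coding starts on both strands, the arrangement of a bidirectional promoter, lay in 19 members (1.58%) and 280 intervals called at both times (4.71%). A lncRNA start without a coding start lay in 54 members (4.48%) and 365 intervals called at both times (6.14%). These 54 and 365 are part of the 379 and 4043 intervals with any start. Counts of these kinds of start were not matched on length and were not taken over the whole 3-hour list.

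**Figure D4:**
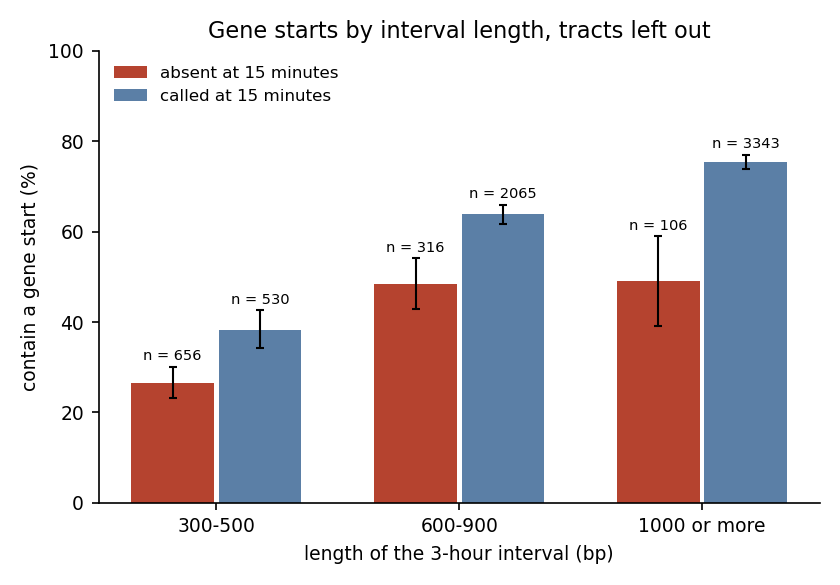
Share of intervals that contain a gene start (y axis, percent) by interval length in bp, with tract intervals left out, for intervals absent at 15 minutes (red) and called at both times (blue). Error bars are 95% exact intervals for counting error, and in each length class the red bar is the lower, 26.5% against 38.3% at 300 to 500 bp.

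Compared with intervals called at both times, members lay more often inside genes and between them. A gene body without a start held 611 members (50.7%) and 1642 intervals called at both times (27.6%), higher on 23 of 23 chromosomes by 22.2 points. No gene overlapped 216 members (17.9%) and 256 intervals called at both times (4.31%), a difference of 14.8 points (adjusted permutation p = 1.75e-05 for each). The shares over all 3-hour intervals, 48.6% and 14.6%, were again nearer to those of the members. Between intervals of like efficiency and length these differences were 9.96 points (adjusted permutation p = 0.00241) and 8.67 points (adjusted permutation p = 0.000577). None of the 128 tract members contained a gene start, 71 (55.5%) lay in gene bodies and 57 (44.5%) in no gene. All 746 tract intervals of the 3-hour list had similar shares, with 5 (0.670%), 421 (56.4%) and 320 (42.9%) in the same order.

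Of the 8 most efficient members over starts of coding genes, 5 measured 300 bp. FIGLA, an oocyte transcription factor gene, had an interval at chr2:70790501-70790800 of 300 bp with an efficiency of 0.9687. VWA3B (0.9677), PRSS3, a trypsin gene (0.9649), and CFAP74, a cilium gene (0.9635), also had intervals of 300 bp, as did HR (0.9596), the hairless corepressor gene. Those of STAC (0.9647) and SYT13, a synaptotagmin gene (0.9596), measured 400 bp, and that of FAM110B (0.9598) 700 bp. The nearest 15-minute interval was 203701 bp away for FIGLA and 383601 bp for STAC. Among intervals called at both times with the efficiency of the most efficient member, 0.9696, those over the starts of RYR2, ERO1A and ZKSCAN2 measured 1100, 1000 and 800 bp.

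Away from starts, the most efficient member lay over coding sequence of SCART1 (chr10:133459501-133460000, 0.9696). One at chr16:21158501-21159000 (0.9692) overlapped a UTR of LDAF1 and lay 124 bp from a gene start, and one of 300 bp at chr19:14472301-14472600 (0.9675) lay over coding sequence of PTGER1, a prostaglandin E receptor gene. In the top efficiency step, from 0.96 to 0.97, a gene start lay inside 17.0% of the 47 members and 68.0% of the intervals called at both times. Median lengths in this step were 400 and 1000 bp. In the lower steps the share ran from 28.3% to 38.9% of members without a steady trend. For intervals called at both times it ran from 67.0% to 69.1%. The highest share of members, 38.9%, was in the step from 0.95 to 0.96. The member farthest up in efficiency among those over 100 kb from any gene start lay in an intron of ESRRG, a nuclear receptor gene (chr1:216601001-216601300, 0.9669, 177553 bp from a start), and was overlapped by peaks of both SNS-seq fractions.

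Beside the ANKDD1A tract, the longest members lay mostly over genes. The interval of 3600 bp (chr12:93570101-93573700, 0.9202) covered the start of SOCS2-AS1 and coding sequence of SOCS2, a suppressor of cytokine signalling. That of 3400 bp (0.9114) lay over coding sequence of ZFTA, and that of 3200 bp (0.9092) covered the start of VENTX, a homeobox gene. One of 2500 bp in MAML3, a Notch coactivator gene, had a 15-minute interval 701 bp away. A member of 2400 bp at chr15:20340201-20342600 (0.9086) lay in no gene and had a CpG ratio of 0.103.

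Gene groups were described by how many of the coding starts in the efficiency range lay in members. Over all protein-coding genes this was 333 of 4342 starts (7.67%). For C2H2 zinc finger genes, many of them transcriptional repressors with long arrays of DNA-binding fingers, it was 21 of 113 (18.6%), and on chromosome 19, which carries their largest clusters, 9 of 23 (39.1%). The other coding starts on chromosome 19 were in members in 17 of 206 cases (8.25%), and zinc finger starts on other chromosomes in 12 of 90 (13.3%). Examples were ZNF181 (0.9457, 400 bp), ZNF77 (0.9233, 1100 bp) and ZNF302 (0.9071, 600 bp) on chromosome 19, ZNF662 (0.9431, 300 bp) on chromosome 3 and ZNF778 (0.9447, 800 bp) on chromosome 16.

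The other lists held few members. Homeobox and other developmental regulators had 2 of 44 starts, HOXD3 (0.9174), a homeobox gene of the HOXD cluster, and TBX6 (0.9308), a T-box factor gene. Solute carriers had 6 of 90, among them SLC25A5 (0.9203), a mitochondrial ADP/ATP carrier, and SLC6A2 (0.9225), the noradrenaline transporter. Of 15 starts of replication genes 1 lay in a member, that of POLA1, the catalytic subunit of DNA polymerase alpha, in an interval of 300 bp (chrX:24693701-24694000, 0.9197). Mitochondrial ribosomal protein genes had 1 of 10, MRPL36 (0.9271). Cytosolic ribosomal protein genes had 0 of 7, tRNA synthetase genes 0 of 1 and histone genes 0 of 1. Both protocadherin starts in the range, PCDH19 (0.9334) and PCDHAC2 (0.913), lay in members.

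Ini-domains, stretches in which at least 6 3-hour intervals follow each other within 100 kb, held 49.2% of members, 49.0% of intervals called at both times and 66.7% of all 3-hour intervals, with a mean chromosome difference of -1.64 points (adjusted permutation p = 0.431). The log10 distance in bp to the nearest other 3-hour interval averaged 4.31 for members and 4.39 for intervals called at both times (adjusted permutation p = 0.125). Without the tract intervals the difference, members minus intervals called at both times, was -0.0978 (adjusted permutation p = 0.000665). For tract members the median distance to the next 3-hour interval was 51901 bp and to the nearest 15-minute interval 101051 bp, against 20451 bp and 48951 bp for the other members.

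**Figure D5:**
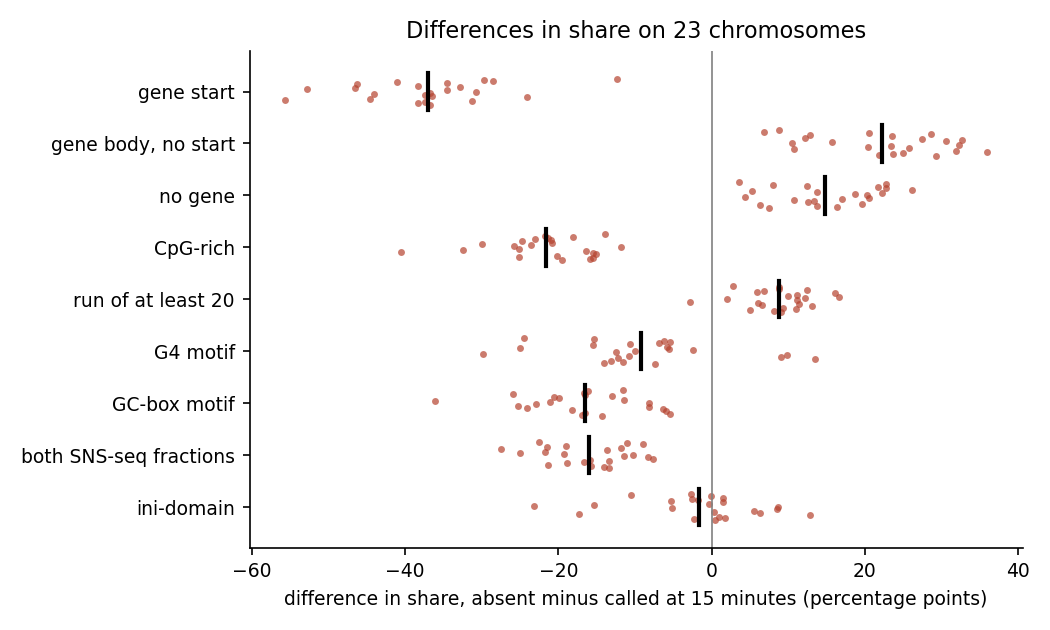
Difference in share between intervals absent at 15 minutes and intervals called at both times (x axis, percentage points) for 9 features, 1 point per chromosome, with the mean as a black bar. Gene starts differ on average by -37.0 points and gene bodies without a start by 22.2 points, each in 1 direction on 23 of 23 chromosomes, and the ini-domain points lie on both sides of 0.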

How the data were processed

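For ini-seq 2 the authors aligned reads to hg38 with Bowtie2 and dropped duplicates and reads without a unique position. They then took each library's share of reads per 100 bp window. Windows with a log2 ratio of HL to LL of 2 or more were merged across gaps up to 500 bp. Merged intervals below a set minimum length were dropped, and the rest entered the list from an efficiency of 0.8. The deposited 3-hour value is this efficiency, a fraction, although its heading reads Z-score. The deposited 15-minute value is a score, a Z-score over that list, and its replicates are not given in the sources used here. MACS2, with genomic DNA as control, gave the SNS-seq peaks, deposited as positions without a value. Versions are not given in the sources used here. The 4 lists hold no counts, so the depth behind each interval is unknown, and intervals on shares (95%, Clopper-Pearson) cover counting error only. The genomic DNA library was not analysed here.

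Sequence features came from hg38 and annotation from GENCODE 44. Overlap means at least 1 base. Short tandem repeats are units of 2 to 6 bases, at least 3 units and 10 bases. Chromosomes with at least 5 members and 5 comparison intervals entered the sign-flip test, which was tested on simulated data. Python 3.11.15, numpy 2.4.6, scipy 1.17.1 and pandas 2.3.3 were used. Strata for like efficiency and length were steps of 0.01 and lengths up to 500, 600 to 900 and 1000 or more bp. Named intervals are the highest in efficiency, the longest, those over coding and lncRNA starts, with long runs, without an SNS-seq peak in 5 kb and over 100 kb from a start, with the comparison intervals closest in efficiency. Sequences on chromosome 8 or in UTRs were not printed. Some other sequences are not reported here. Members, gene lists and tests were chosen with earlier results of these data known.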

Additional observations from a re-analysis of the deposited data

How the results depend on the processing

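Of 157 differences recomputed under alternatives, 142 kept their direction and their side of the threshold. Within strata of efficiency and length, which used 1155 members on 22 chromosomes, the G4 difference was -6.63 points (adjusted permutation p = 0.119), that of CCGGAAGT -3.00 points (adjusted permutation p = 0.0355), that of TATAAA 1.22 points (adjusted permutation p = 0.0167), that of flanking GC 0.69 points and that of ini-domains 1.63 points. The flanking GC difference, -0.0008 points in the report's setting, was also above 0 with comparison intervals covered over at least 50% of their length (0.0963), on autosomes only (0.0248), without tract intervals (0.256) and without chromosome 19 (0.0282). Below an efficiency of 0.92 the neighbour distance difference was 0.0305 and that of CCAAT -0.41 points. Without tract intervals the differences were -1.53 points for runs of at least 20, -0.961 points for tandem repeats, -0.22 points for an SNS-seq peak within 5 kb and -0.0978 for log10 neighbour distance. Leaving out tract intervals and chromosome 19 were added after seeing the data. For runs of at least 20 without tract intervals, the change follows from how the tract class is defined. The cause of the other changes was not tested.

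The number of members was 697 with a lower efficiency limit of 0.92 and 415 with 0.93. It was 1194, 1178 and 1067 when a 15-minute interval within 0.5, 1 or 5 kb also counted as present, and 1759 when intervals covered over under 50% of their length counted as absent. A planned comparison of repeat-masked bases could not be run, since the genome used here carries no repeat marking. No paired analysis was possible because each condition is 1 list. Without counts, a site missed at 15 minutes for low signal and a site with no replication there cannot be told apart.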
